A study of Mus musculus with 2 samples.

Results

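The 9 genes described here encode the cyclins and cyclin-dependent kinases of the G1 phase of the cell cycle, together with the transcription factor Myc. They are the D-type cyclins Ccnd1, Ccnd2 and Ccnd3, the E-type cyclins Ccne1 and Ccne2, the kinases Cdk2, Cdk4 and Cdk6, and Myc. They were chosen by gene symbol among the 28692 genes counted, and all 9 symbols were found. Transcripts were counted in single cells of 2 droplet libraries (10x Genomics Chromium), 1 for each of 2 media, made from primary hepatocytes of C57BL/6 mouse liver embedded in growth-factor reduced matrigel, a gel of basement membrane proteins.

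Both media were William E medium with Glutamax, non-essential amino acids, penicillin/streptomycin, normocin, B27 and N2 supplements. Both also held nicotinamide at 100 mM, N-acetylcysteine at 1.25 mM, Y27632 at 10 uM, A83-01 (an inhibitor of TGF-beta type I receptors) at 1 uM, and the growth factors EGF at 25 ng/mL and HGF at 50 ng/mL. The expansion medium added CHIR99021, an inhibitor of the kinase GSK3, at 3 uM and the cytokine TNFa at 100 ng/mL. The induction medium lacked both and held dexamethasone, a synthetic glucocorticoid, at 3 uM. The age and number of the mice and the time in culture are not stated in the sources used here. With 1 library per medium the difference between the media has no replicate check, so no p-value is given, and medium and library cannot be told apart. Intervals below are at 95% and cover counting error only.

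In the textbook account of G1, growth factors raise the D-type cyclins, which bind Cdk4 or Cdk6 and start the phosphorylation of the retinoblastoma protein. This frees E2F factors, which switch on the E-type cyclins, and cyclin E with Cdk2 then drives entry into DNA synthesis. Myc pairs with Max on the DNA letters CACGTG, called an E-box, and turns on genes for growth and for the cell cycle, Cdk4 among them. Hepatocytes of the adult liver are mostly at rest, and after loss of liver tissue Myc is an early and Ccnd1 a later gene of their return to the cycle.

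The Cdk4 promoter is printed because Cdk4 and Myc stood furthest apart between the media among the members of at least 20 CPM (defined below), in opposite directions. RefSeq promoters of build GRCm38.p6 were matched for 5 of the 9 genes (Ccnd3, Ccne1, Cdk2, Cdk4 and Cdk6). The bases lie on the plus strand at chr10:127063285-127063533, just before the start of Cdk4, and overlap no annotated exon. Capitals mark each CACGTG, which reads the same on both strands.
Cdk4 promoter: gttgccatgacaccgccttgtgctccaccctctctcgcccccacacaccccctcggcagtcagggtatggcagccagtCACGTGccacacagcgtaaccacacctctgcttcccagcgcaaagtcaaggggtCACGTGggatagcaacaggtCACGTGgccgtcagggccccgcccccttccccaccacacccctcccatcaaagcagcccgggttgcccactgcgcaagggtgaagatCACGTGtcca

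The 4 E-boxes began 172, 118, 98 and 11 bases before the gene's start. Of 32851 RefSeq promoter windows of 250 bases, 6.02% held at least 1 E-box and 7 windows (0.0213%) held at least 4. The Cdk6 window (chr5:3343643-3343892) held 1 E-box, 220 bases before its RefSeq start, and lies inside the gene span given below. The windows of Ccnd3, Ccne1 and Cdk2 held none. Annotated exon next to the start was trimmed from the members' windows, down to 206 bases for Ccne1, but not from the 32851 windows. The E2F letters searched on both strands were TTTCCCGC, TTTGGCGC, TTTCGCGC and TTTGCCGC. They were found once among the promoters of the 5 genes, 140 bases before the start of Cdk2, against 1.86% of all windows. A match of letters is a description of the sequence and not evidence of binding.

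After cells with few genes or a high mitochondrial share were left out, 1191 expansion and 1245 induction cells remained. The median cell held 23184 UMIs (molecules counted once each) in expansion and 6765 in induction medium, a 3.43-fold gap in depth. A count of 3 UMIs corresponded to 0.102 and 0.326 CPM, the UMIs of a gene scaled to the same total in each library. The median gene stood 0.22 higher in induction on the log2 scale, and ratios relative to this gene are given where they bear on a direction. All 10 hepatocyte markers were detected in both libraries, although Cps1 was at 7 UMIs in expansion. Defining markers of other liver cells were at 0 in both libraries, among them Krt7 of bile duct cells, Col1a1, Col3a1 and Acta2 of stellate cells, Kdr and Cdh5 of endothelium, Adgre1, Clec4f and Ptprc of macrophages, and Cd3e of T cells. Other genes of these lists were detected, among them Sox9 of bile duct cells at 103 and 74.8 CPM, the endothelial genes Egfl7 at 38.8 and 33.6 CPM and Pecam1 at 16 and 3 UMIs, and Cd68 of macrophages at 40 and 6 UMIs. Summed levels of the bile duct list were 1433 CPM in expansion and 754 CPM in induction, carried mostly by Spp1. The stellate list summed to 402 and 180 CPM, nearly all of it Rgs5. Both libraries held cells with Xist (364 and 399) and cells with Y-linked transcripts (486 and 268), so each drew on animals of both sexes. The libraries shared 4 cell barcodes.

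Summed over each library, the 9 genes made up 1004 CPM in expansion and 919 CPM in induction medium. A UMI counts 1 captured transcript whatever its length, so levels of different genes are set side by side as CPM, although capture can differ between transcripts. In expansion the order was Ccnd1, Ccnd2, Cdk4, Cdk6, Ccnd3, Myc, Ccne1, Cdk2 and Ccne2, and neighbours were apart beyond counting error except Ccnd2 and Cdk4, whose UMIs stood at a ratio of 1.00 (0.964 to 1.05). In induction medium Myc ranked beside Ccnd3, with a ratio of 1.05 (0.895 to 1.22), and Cdk2 beside Ccne1, with a ratio of 1.06 (0.702 to 1.61). Cdk4 there lay below Ccnd2, by a ratio of 1.51 (1.38 to 1.65).

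Between the media, 7 of the 9 genes reached 10 CPM in the higher library and counted as measured; Ccne2 and Cdk2 did not. None of the 7 was at least 2-fold higher in induction with an interval excluding a ratio of 1, a rule met by 9.17% of the 7220 genes measured. One, Ccne1, was at least 2-fold lower, a rule met by 3.17% of genes. Without the limit on fold, the interval lay below a ratio of 1 for 4 of the 7 (18.6% of genes) and above it for 1, Myc (50.8% of genes). The median log2 ratio of the 7 was -0.17, against 0.21 over all measured genes.

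**Figure D1:**
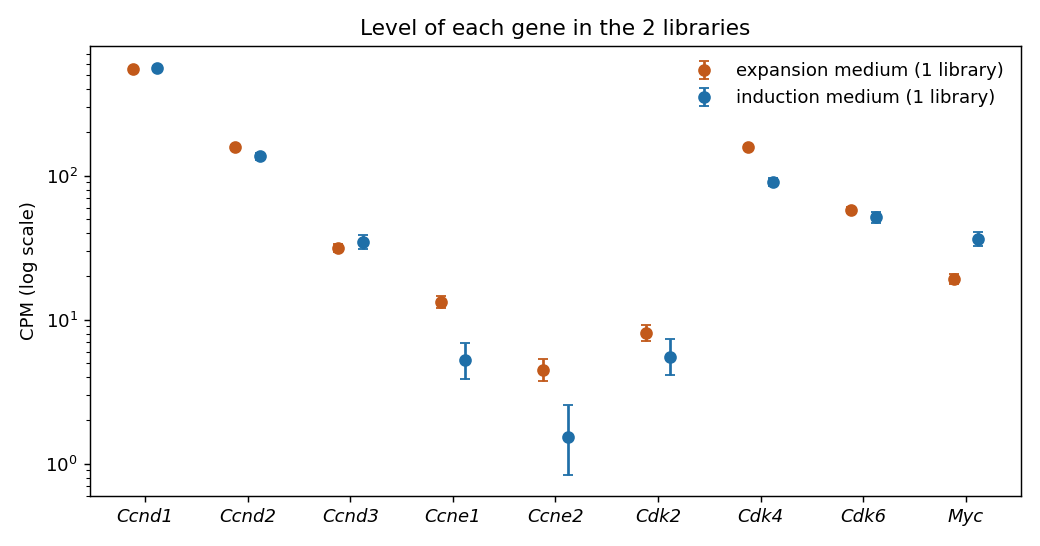
CPM (log axis) of each gene in the expansion library (orange) and the induction library (blue), 1 library each; points are the summed counts and bars exact 95% Poisson intervals, hidden where shorter than the point. Ccnd1 was level at 552.5 and 557.6 CPM, Ccne1 stood at 13.3 and 5.22 CPM, and Myc at 19.2 and 36.3 CPM.

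Ccnd1, the D-type cyclin best known in liver regeneration, was the most abundant of the 9 genes in both media. It lies on chromosome 7 at 144929931 to 144939925 (GRCm38, minus strand). It gave 16239 UMIs in expansion, or 552.5 CPM (544 to 561), and 5131 UMIs in induction, or 557.6 CPM (542 to 573). The log2 ratio of induction over expansion was 0.01 (-0.03 to 0.06), so the 2 levels were within counting error, while relative to the median gene the value turned to -0.21. A UMI of Ccnd1 was found in 98.4% of expansion and 72.2% of induction cells. With each cell thinned to 2000 UMIs, which removes the gap in depth and leaves out 14 induction cells, the shares were 59.8% (56.9 to 62.6) and 50.4% (47.5 to 53.2). So at equal UMIs per cell the same average level was found in a smaller share of induction cells. RNA free in the droplets can raise such shares, and thinning does not remove it. Its gauge, described below with its limits, was Xist in cells with at least 2 Y-linked UMIs, at 31.1 CPM in expansion and 2.51 CPM in induction. The part of free RNA in the shares was not tested. At 5000 UMIs per cell the variance of Ccnd1 over its mean was 2.23 in expansion and 3.35 in induction, at means of 2.75 and 2.65 UMIs per cell.

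Ccnd2, a D-type cyclin on chromosome 6 (127125162 to 127152193, minus strand), gave 4666 UMIs and 158.8 CPM (154 to 163) in expansion and 1253 UMIs and 136.2 CPM (129 to 144) in induction. The log2 ratio was -0.22 (-0.31 to -0.13), a 1.17-fold lower level. The direction did not hold in every set of cells: it was 0.23 (0.02 to 0.46) among cells of 5000 to 15000 UMIs and -0.78 (-0.91 to -0.65) without the clusters led by S100a6 described below. That window of depth lies below the expansion median of 23184 UMIs and holds the induction median of 6765 UMIs. It thus takes unlike parts of the 2 libraries. Thinned to 2000 UMIs, 23.6% (21.2 to 26.1) of expansion and 16.2% (14.2 to 18.3) of induction cells held a Ccnd2 UMI, and in full counts 74.3% and 32.7%. At 5000 UMIs its variance over mean was 1.84 in expansion and 3.21 in induction, at means of 0.767 and 0.654 UMIs per cell.

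Ccnd3, the third D-type cyclin, lies on chromosome 17 (47505051 to 47599691, plus strand). Its 928 and 319 UMIs came to 31.6 CPM in expansion (29.6 to 33.7) and 34.7 CPM in induction (31.0 to 38.7). The log2 ratio of 0.13 (-0.05 to 0.32) held 0, and it turned to -0.08 relative to the median gene. Thinned shares of cells were 6.30% and 4.96%, with intervals of 4.99 to 7.83 and 3.81 to 6.32 that overlap.

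The 3 D-type cyclins together were 743 CPM in expansion and 728 CPM in induction medium. Ccnd1 gave 74.4% (73.8 to 75.0) of these UMIs in expansion and 76.5% (75.5 to 77.6) in induction, Ccnd2 gave 21.4% and 18.7%, and Ccnd3 gave 4.25% and 4.76%. The makeup of the family thus shifted by a few percentage points, while the share of cells showing none of the 3 did not stay level. Among cells thinned to 5000 UMIs, 93 of 1191 expansion cells (7.81%, 6.35 to 9.48) and 196 of 952 induction cells (20.6%, 18.1 to 23.3) held no D-type cyclin UMI. This leaves out 293 shallower induction cells, and the part of free RNA in these shares was not tested. Cells with Ccnd1 and Ccnd2 but no Ccnd3 were 31.7% in expansion and 20.2% in induction, and cells with Ccnd1 alone 40.9% and 38.8%.

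In induction medium Ccnd2 was more common in cells with Ccnd1 than in cells without it. At 5000 UMIs per cell, 34.7% (31.1 to 38.4) of induction cells with Ccnd1 also held Ccnd2, against 20.1% (15.5 to 25.4) of cells without it. In expansion the shares were 44.2% (41.1 to 47.4) and 42.2% (35.1 to 49.5), which overlap. Whether the 2 media differ in this, and the part of free RNA in it, was not tested.

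Cdk4, a kinase partner of the D-type cyclins, stood lower in induction medium. It lies on chromosome 10 (127063534 to 127067920, plus strand), downstream of the promoter printed above. It gave 4647 UMIs and 158.1 CPM (154 to 163) in expansion and 831 UMIs and 90.3 CPM (84.3 to 96.7) in induction. The level was 1.75-fold lower (1.63 to 1.89), a log2 ratio of -0.81 (-0.92 to -0.70), short of the 2-fold rule. Relative to the median gene the value was -1.03, which passes that rule. Thinned shares were 24.6% of expansion and 13.2% of induction cells, with intervals of 22.2 to 27.2 and 11.4 to 15.3 that do not overlap; in full counts the shares were 90.01% and 39.4%.

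Cdk6, the other kinase of the D-type cyclins, lies on chromosome 5 (3341485 to 3531008, plus strand). Its 1695 and 473 UMIs came to 57.7 CPM (55.0 to 60.5) and 51.4 CPM (46.9 to 56.3), a log2 ratio of -0.17 (-0.32 to -0.02). Thinned shares of 9.82% and 8.29% overlapped in their intervals. Since Cdk4 stood lower by more than Cdk6, the share of Cdk4 in the UMIs of both kinases was 73.3% (72.2 to 74.4) in expansion and 63.7% (61.1 to 66.3) in induction. Their sum was 216 and 142 CPM, while that of the D-type cyclins was nearly level.

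Cdk6 UMIs were also more common in cells that held Ccnd2. At 5000 UMIs per cell, 29.4% (25.6 to 33.6) of expansion cells with Ccnd2 held Cdk6, against 22.3% (19.2 to 25.7) of those without, intervals that just overlap. In induction medium the shares were 28.9% (23.7 to 34.4) and 13.2% (10.7 to 16.0), which do not overlap. Cdk6 was likewise found in 26.9% (21.9 to 32.4) of induction cells with Cdk4 and 14.0% (11.5 to 16.9) of those without. In expansion the shares were 27.1% (23.5 to 30.9) and 23.9% (20.5 to 27.5), which overlap. Whether the media differ in these pairs, and the part of free RNA in them, was not tested.

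Ccne1, an E-type cyclin on chromosome 7 (38097984 to 38107534, minus strand), was the member called lower in induction medium. It gave 390 UMIs in expansion, 13.3 CPM (12.0 to 14.7), and 48 UMIs in induction, 5.22 CPM (3.85 to 6.92). That is a 2.54-fold lower level (1.88 to 3.51), and the log2 ratio was -1.35 (-1.81 to -0.91). Ccne1 UMIs were seen in 3.19% (2.27 to 4.35) of expansion cells and 0.650% (0.281 to 1.28) of induction cells after thinning, and in 19.8% and 3.13% in full counts.

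Ccne2, the other E-type cyclin, lies on chromosome 4 (11191351 to 11204779, plus strand) and was the scarcest of the 9 genes. It gave 132 UMIs (4.49 CPM, 3.76 to 5.33) in expansion and 14 UMIs (1.52 CPM, 0.832 to 2.55) in induction. The level was 2.95-fold lower, with a wide interval of 1.70 to 5.55, and lay under the limit of 10 CPM for a call. Ccne1 made up 74.7% (70.8 to 78.4) of E-type cyclin UMIs in expansion and 77.4% (65.0 to 87.1) in induction, intervals that overlap. With 62 such UMIs in induction, a modest shift in proportion would not be seen. The family went from 17.8 to 6.74 CPM.

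Cdk2, the kinase partner of the E-type cyclins, lies on chromosome 10 (128697939 to 128705031, minus strand). It gave 239 UMIs (8.13 CPM, 7.13 to 9.23) and 51 UMIs (5.54 CPM, 4.13 to 7.29), a log2 ratio of -0.55 (-1.02 to -0.11). Free RNA in droplets can give UMIs in cells that do not express a gene. Xist, which male cells lack, gauged this: it was found in 3.00% of 599 thinned expansion cells with at least 2 Y-linked UMIs and in 0.368% of 272 such induction cells, at median depths of 24990 and 7899.5 UMIs before thinning. Its level was 31.1 CPM in those expansion cells and 2.51 CPM in those induction cells, against 430 and 639 CPM over the libraries. The cells were taken whatever their Xist UMIs, so they exceed the 486 and 268 counted above as cells with Y-linked transcripts. Some may not be male cells, so the gauge may hold more than free RNA. Thinned shares in expansion were 1.93% for Cdk2 and 0.840% for Ccne2, both under the 3.00% of the far more abundant Xist, whose share is no measure of their own background. No expression per cell is read from them. The shares in induction were 1.30% for Cdk2 and 0.569% for Ccne2. Free RNA bears on the shares of the other members too, and its part in them was not tested.

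Myc was the member that stood higher in induction medium. It lies on chromosome 15 (61985391 to 61990374, plus strand) and gave 564 UMIs in expansion, 19.2 CPM (17.6 to 20.8), and 334 UMIs in induction, 36.3 CPM (32.5 to 40.4). The level was 1.89-fold higher (1.65 to 2.17), a log2 ratio of 0.92 (0.72 to 1.12) and of 0.70 relative to the median gene. Cells with a Myc UMI after thinning were 4.87% (3.72 to 6.25) in expansion and 6.42% (5.11 to 7.93) in induction, intervals that overlap, and the ratio of the thinned counts was 0.42 (-0.09 to 0.93). Thinned to 5000 UMIs, with the 293 shallower induction cells left out, the shares were 9.99% (8.35 to 11.8) and 15.02% (12.8 to 17.5), which do not overlap. The difference was thus seen at the larger number of UMIs per cell and was not detectable at the smaller one. In full counts a Myc UMI was found in 33.8% of expansion and 20.6% of induction cells, a share that goes with depth and against the CPM.

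Cells were next grouped within each library by transcripts of other genes of the cycle. A cell with at least 2 genes of a G2/M list after thinning was put in the G2/M class, otherwise one with at least 2 genes of a G1/S list in the G1/S class, and the rest in neither; none of the 9 genes is in these lists. In expansion 836 cells (70.2%) were in neither class, 164 (13.8%) in G1/S and 191 (16.0%) in G2/M. In induction medium these were 1056 (85.8%), 76 (6.17%) and 99 (8.04%). The classes are ranges and not cell types: 225 expansion and 176 induction cells held exactly 1 G2/M gene, and 74 and 23 exactly 2. Median depth before thinning was 22875.5, 22792 and 24979 UMIs in the expansion classes and 6621, 7100 and 9425 UMIs in the induction classes.

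The E-type cyclins and Cdk2 followed these classes in expansion medium. Ccne1 was at 6.19 CPM in cells of neither class, 29.8 CPM in G1/S and 28.8 CPM in G2/M, or 4.82-fold (3.73 to 6.24) and 4.65-fold (3.64 to 5.96) above neither. Ccne2 was at 1.37, 13.8 and 9.66 CPM, a 10.0-fold (6.27 to 16.4) and 7.03-fold (4.32 to 11.6) difference, the widest of the 9 genes in that library. Cdk2 stood at 5.20, 16.0 and 13.7 CPM, 3.08-fold (2.23 to 4.23) and 2.63-fold (1.91 to 3.60) above neither. Levels in the G1/S and G2/M classes were close to each other for these 3 genes. The G2/M list was applied first, so the G2/M class may also hold cells with G1/S genes. Among the clusters described below, all 3 stood lower in the one led by Cdc20 than in the one led by 2810417H13Rik.

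In induction medium the same 3 genes rested on few UMIs. Ccne1 was at 2.89 CPM in neither class (22 UMIs), 12.0 CPM in G1/S (7 UMIs) and 19.6 CPM in G2/M (19 UMIs). Cdk2 was at 4.07, 5.14 and 17.5 CPM, of which the G1/S value is 3 UMIs. Ccne2 gave 3, 3 and 8 UMIs, with a ratio of G2/M over neither of 21.0 and an interval of 5.03 to 123. Within classes, Ccne1 stood lower in induction by -1.10 (-1.82 to -0.44) on the log2 scale in neither class. The value was -1.31 (-2.66 to -0.23) in G1/S and -0.55 (-1.33 to 0.14) in G2/M, where the interval held 0.

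**Figure D2:**
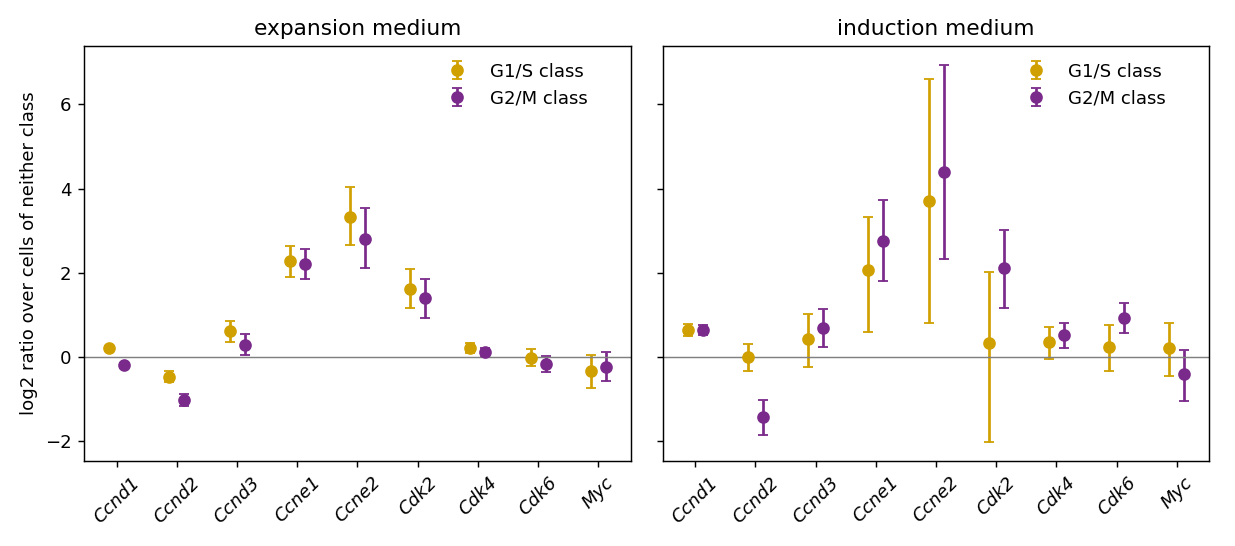
Log2 ratio of each gene's CPM in the G1/S class (yellow) and the G2/M class (purple) over cells of neither class, in expansion (left) and induction medium (right), 1 library each; bars are 95% counting intervals. Ccne1, Ccne2 and Cdk2 lay above 0 in expansion, with Ccne1 at 2.27 and 2.22, while Ccnd2 in the G2/M class lay below 0 in both media, at -1.02 and -1.42.

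The D-type cyclins each had another pattern. Ccnd2 was lower in the G2/M class in both libraries, at 181 CPM in neither and 89.6 CPM in G2/M in expansion (2.02-fold lower) and at 146 and 54.7 CPM in induction (2.67-fold lower). Its level in the G1/S class of expansion, 131 CPM, gave a log2 ratio of -0.47 over neither, but the sign of that ratio turned with the limits used for the class, to 0.21 with classes from 5000 UMIs. Ccnd3 was higher in both cycling classes of expansion, at 28.4, 43.4 and 34.8 CPM, and in induction stood at 31.9, 42.8 and 51.6 CPM. Ccnd1 stood in expansion at 553 CPM in neither class, 638 CPM in G1/S and 481 CPM in G2/M, so its G2/M level was below that of neither. In induction it stood at 510, 797 and 795 CPM, 1.56-fold above neither in both cycling classes. Between the media Ccnd1 was thus slightly lower in induction among cells of neither class, with a log2 ratio of -0.12 (-0.17 to -0.06), and higher in the G2/M class, at 0.72 (0.61 to 0.84).

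Cdk4 differed little by class in expansion, at 153, 176 and 165 CPM, and stood at 85.0, 108 and 122 CPM in induction. Its lower level in induction held in each class, with log2 ratios of -0.85 (-0.97 to -0.72) in neither, -0.71 (-1.10 to -0.33) in G1/S and -0.44 (-0.73 to -0.16) in G2/M. Cdk6 was at 58.8, 58.2 and 52.5 CPM in expansion and 46.6, 54.8 and 88.7 CPM in induction, where only the G2/M value lay apart from neither (1.91-fold, 1.49 to 2.42). No difference of Myc between the cycling classes and neither was beyond counting error in either library. It stood at 20.3, 16.0 and 17.3 CPM in expansion and 37.0, 42.8 and 27.9 CPM in induction. The interval of each ratio over neither held 1. In induction the G1/S and G2/M values rest on 25 and 27 UMIs, so a modest difference would not be seen. The higher level of Myc in induction was seen in each class, at 0.87 (0.64 to 1.09), 1.42 (0.69 to 2.104) and 0.69 (0.01 to 1.32).

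Clusters were made in each library without the 9 genes, giving 8 in expansion and 7 in induction, and are named here by the gene that leads them by fold. In both media one cluster was led by S100a6, with Serpine2 and Sprr1a next to it, and held 115 expansion and 96 induction cells. S100a6 is a calcium-binding protein. These 2 clusters had the highest Ccnd1, Ccnd2, Cdk4 and Cdk6 of their libraries. Ccnd1 was at 812 CPM (782 to 843) in the expansion one and 1009 CPM (947 to 1074) in the induction one. Ccnd2 was at 462 CPM (440 to 485) and 702 CPM (650 to 756), against medians over clusters of 110 and 57.9 CPM. Cdk4 was at 312 and 262 CPM, and Cdk6 at 115 and 167 CPM. Ccnd2 gave 35.2% of D-type cyclin UMIs in the expansion cluster and 39.0% in the induction one, its largest share among the clusters of each library.

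Other measures of the S100a6-led clusters moved with these levels. Hepatocyte markers took 1.86% of their UMIs in expansion and 2.39% in induction, against 4.94% and 7.42% in the other cells. Their median depth was 29210 and 10078 UMIs, above that of their libraries. Cells of the G2/M class made up 6.09% and 6.25% of them. The part of depth or of hepatocyte content in the cyclin levels was not tested.

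Ccnd2 had the widest range over clusters among the abundant genes, 8.76-fold in expansion and 27.0-fold in induction. The part of free RNA in these ranges was not tested. The lowest Ccnd2 levels were 52.8 CPM (44.5 to 62.1) in expansion and 26.0 CPM (18.1 to 36.2) in induction. They were in a cluster led by Slc22a30, a transporter gene, in expansion and one led by Slco1b2, a hepatocyte uptake transporter, in induction. Slc22a30 was also among the 3 leading genes of the second. Of the cells in these clusters, 98.5% and 98.6% carried Xist and none carried Y-linked transcripts. Ccnd1 stayed at 691 and 527 CPM there, so Ccnd2 was 6.78% and 4.44% of the D-type cyclin UMIs.

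The E-type cyclins and Cdk2 peaked in a cluster of expansion cells led by 2810417H13Rik, Clspn and Rrm2, the last of which encodes a subunit of the enzyme that makes deoxyribonucleotides. Ccne1 was at 48.0 CPM there (41.8 to 55.0), Ccne2 at 22.0 CPM and Cdk2 at 21.5 CPM. In the expansion cluster led by the mitotic genes Cdc20, Cenpf and Cdkn3 they were at 10.6, 0.706 (2 UMIs) and 6.35 CPM. Ccne1 in these 2 clusters thus differed by more than its intervals. Cells of the G2/M class made up 48.8% and 72.4% of the clusters, and cells of the G1/S class 40% and 9.52%. In induction a single cluster, led by Ube2c, held the highest levels, 21.7, 6.86 and 18.3 CPM. Ccnd2 was low in it, at 37.7 CPM, and Ccnd1 was at 777 CPM.

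Myc had the narrowest range over clusters. In expansion it ran from 13.0 CPM in the cluster led by 2810417H13Rik to 26.2 CPM in that led by S100a6. In induction it ran from 28.6 CPM in the cluster led by Ube2c to 52.0 CPM in one led by Prelp. Every induction cluster thus had a higher point value than any expansion cluster. The S100a6-led cluster of induction, with the highest D-type cyclins, was at 30.8 CPM of Myc, next to the lowest.

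**Figure D3:**
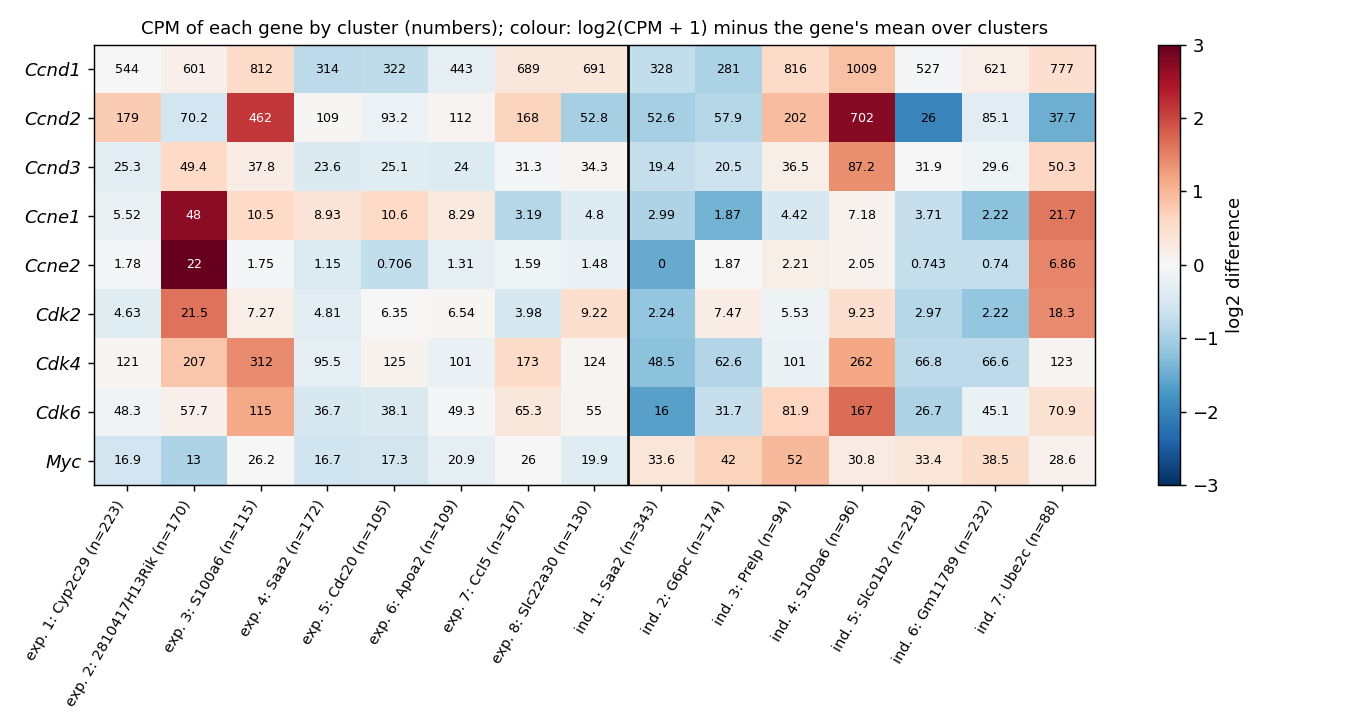
CPM of each gene (numbers) in the 8 expansion clusters (left of the line) and the 7 induction clusters (right), each named by its leading gene with its number of cells; colour is log2(CPM + 1) minus the gene's mean over the 15 clusters. The S100a6-led clusters stand out for Ccnd2 at 462 and 702 CPM, the 2810417H13Rik-led cluster for Ccne1 at 48.0 CPM, and Myc is higher across the induction clusters.

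Genes with the most similar course over the 15 clusters were found by the Pearson correlation of log2(CPM + 1) among 4566 other genes. The clusters share their libraries, depth and cell state, so these values describe likeness and carry no p. Ccnd2 was closest to Cdkn2a (0.93), 2700060E02Rik (0.91) and Cdkn2b (0.89). Cdkn2a encodes an inhibitor of Cdk4 and Cdk6 and, in another reading frame, a protein that stabilises p53, and Cdkn2b encodes a second inhibitor of these kinases. Cdkn2a was at 222 CPM in the S100a6-led cluster of expansion and 286 CPM in that of induction. In the clusters with the lowest Ccnd2 it was at 26.9 and 8.17 CPM. Cdkn2b in the S100a6-led clusters was at 110.5 and 130 CPM, and Cdkn1a, an inhibitor of cyclin-dependent kinases and a target of p53, at 293 and 436 CPM. The clusters with the most Ccnd1, Ccnd2, Cdk4 and Cdk6 were thus also those with the most Cdkn1a, Cdkn2a and Cdkn2b. Cdkn2c and Cdkn2d, which encode further inhibitors of Cdk4 and Cdk6, had a different course. Cdkn2c was highest in the clusters led by 2810417H13Rik (49.2 CPM) and Ube2c (78.9 CPM), as was Cdkn2d (16.0 and 26.3 CPM).

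**Figure D4:**
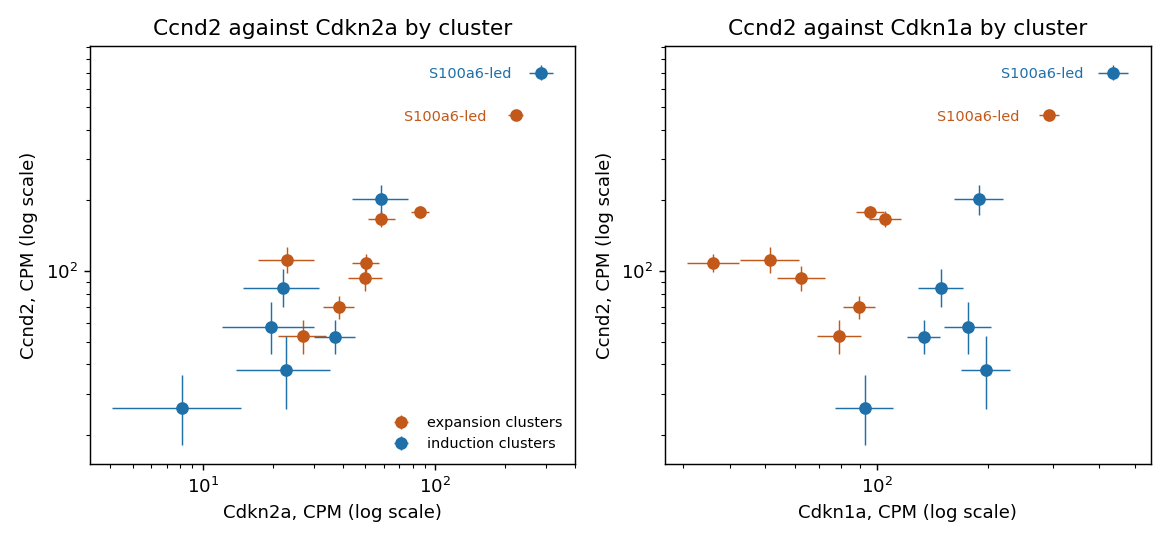
CPM of Ccnd2 against CPM of Cdkn2a (left) and of Cdkn1a (right) in the 15 clusters, expansion in orange and induction in blue, log axes, bars exact 95% Poisson intervals. The S100a6-led clusters lie at the upper right of both panels, at 462 and 702 CPM of Ccnd2 beside 222 and 286 CPM of Cdkn2a.

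For the other abundant members, Ccnd1 was most like Tulp4 (0.94), Slc48a1 (0.93) and Zmat3 (0.92), and Ccnd3 most like B230219D22Rik (0.92), Yaf2 (0.90) and Tgfa (0.89), the last a ligand of the EGF receptor. Among the genes most like Cdk4 were Eva1b (0.96) and Npm3 (0.94). Cdk6 was most like Map4k4 (0.96), Igfbp3 (0.94) and Zmat3 (0.93). Myc was most like Sqstm1 (0.92), an autophagy receptor, 4930402H24Rik (0.92) and Txnip (0.91), an inhibitor of thioredoxin. Among the members, Ccne2 and Cdk2 ran most alike (0.86), then Cdk4 and Cdk6 (0.85). Ccne1 and Myc ran most opposed (-0.64).

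The media were also compared within cells with Xist and within cells with Y-linked transcripts. Left in neither set were 341 of 1191 expansion and 578 of 1245 induction cells. The rule needs at least 2 UMIs, so it depends on depth, and the sets are not all cells of each sex. Cells of different sexes come from different animals, so sex and animal cannot be told apart. Ccnd2 stood at 164 CPM (156 to 172) in expansion and 108 CPM (96.5 to 120) in induction among Xist cells, a log2 ratio of -0.60 (-0.78 to -0.43). Among cells with Y-linked transcripts it stood at 163 CPM (156 to 171) and 195 CPM (177 to 213), a ratio of 0.25 (0.10 to 0.40). The expansion levels were alike and the induction levels were not. The Xist cells lay in different clusters in the 2 media. Of 399 induction Xist cells 215 were in the Slco1b2-led cluster, with 26.0 CPM of Ccnd2, and 31 in the S100a6-led one, while of 364 expansion Xist cells 128 were in the Slc22a30-led cluster and 55 in the S100a6-led one. No Y-linked cell was in either of the clusters low in Ccnd2. The part of this makeup in the ratios was not tested. Ccnd1 was level in both, at -0.01 and 0.03. Cdk4 stood lower in both, at -0.85 and -0.58, as did Ccne1, at -1.25 and -2.04 (7 induction UMIs in Y-linked cells). Myc stood higher in both, at 1.08 and 0.79. Cdk2 was at -0.91 (-1.74 to -0.16) and 0.24 (-0.58 to 0.99).

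**Figure D5:**
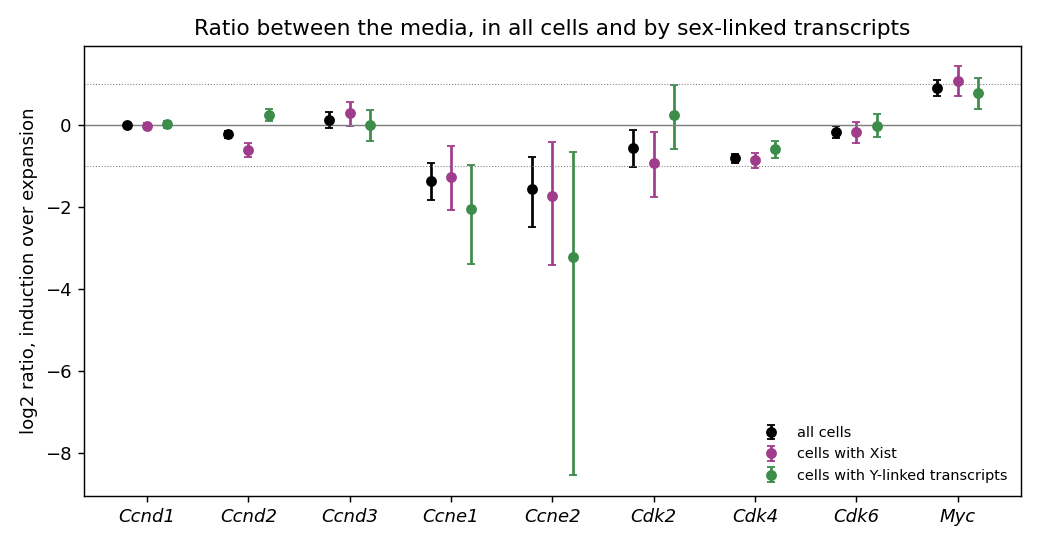
Log2 ratio of CPM, induction over expansion, for all cells (black), cells with Xist (purple) and cells with Y-linked transcripts (green), 1 library per medium; bars are 95% counting intervals and dotted lines mark 2-fold. Ccnd2 lies at -0.60 in Xist cells and 0.25 in Y-linked cells; in all cells Ccne1 lies at -1.35 and Myc at 0.92, and the values of Ccnd1 (0.01) and Ccnd3 (0.13) turn to -0.21 and -0.08 relative to the median gene.

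Genes that act with these 9 were described by list, to be read beside the 9.17% of all measured genes called higher, the 3.17% called lower and their median log2 ratio of 0.21. Of 7 inhibitors of cyclin-dependent kinases 5 were measured and none was 2-fold apart, with a median log2 ratio of 0.36. Cdkn1a stood at 102 CPM in expansion and 179 CPM in induction (0.81), and Cdkn1b at 7.62 and 12.3 CPM (0.69), while Cdkn2a and Cdkn2b stood at -0.37 and -0.62. Of 13 pocket proteins and E2F factors 6 were measured and 1 was called higher, Rb1, the retinoblastoma gene, at 5.27 and 12.1 CPM (1.19). E2f1, an activator of S phase genes, stood at 18.7 and 10.3 CPM (-0.86) and E2f4, a repressor in resting cells, at 34.8 and 28.5 CPM. Relative to the median gene Rb1 is no longer 2-fold apart and 1 gene of this list is called lower.

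Of 15 genes of kinase activation and cyclin turnover 12 were measured and 1 was called higher, a share near the 9.17% of all measured genes. It was Fbxo31, part of a ubiquitin ligase known to direct cyclin D1 to destruction, at 6.91 CPM in expansion and 30.8 CPM in induction, 4.45-fold higher. The most abundant of this list, Cdc37, the chaperone partner that loads kinases such as Cdk4 onto Hsp90, stood at 89.7 and 82.9 CPM.

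G1/S genes, which E2F factors drive, were lower in induction in the same direction as the E-type cyclins. Of 28, 21 were measured and 7 were called lower (Mcm3, Mcm5, Gins2, Hells, Uhrf1, Dtl and Tipin), with none higher and a median of -0.82. Gins2, of the replicative helicase, stood at 12.9 and 4.67 CPM (-1.47) and Mcm5, of the same complex, at 13.6 and 5.11 CPM (-1.42). The number called lower was 11 relative to the median gene and 14 without mitochondrial and ribosomal protein genes. Of 25 G2/M genes 13 were measured and none was called, with a median of -0.59. That count rested on the processing. Called lower were 1 of 13 relative to the median gene and 4 of 22 without mitochondrial and ribosomal protein genes. The number was 4 of 12 with cells thinned to 2000 UMIs and 8 of 11 in Y-linked cells. In cells with fewer than 2 G2/M genes 5 of 7 were called lower. Those cells were picked by these same genes, so that count is no check on their direction. Ccnb2, a mitotic cyclin, stood at 24.3 and 13.5 CPM (-0.85) and the log2 ratio of Mki67 was -0.71, while Cks2 stood at 61.0 and 73.6 CPM (0.27). In bulk sums such as these, fewer cycling cells and less RNA per cycling cell cannot be told apart, and the share of cycling cells by class is given above.

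Of 12 genes of the Myc network 6 were measured and 3 were called higher, with a median of 0.84, beside 9.17% of all measured genes called higher and a median of 0.21. The interval lay above a ratio of 1 for 5 of the 6, beside 50.8% of all measured genes. The 3 were Mxd4, at 37.3 and 79.7 CPM (1.09), Mxi1, at 7.11 and 16.1 CPM (1.18), and Mycl, at 7.32 and 17.4 CPM (1.25). Mxd4 and Mxi1 encode proteins that compete with Myc for Max, and Mycl is a relative of Myc. Relative to the median gene 1 of the 3 remained 2-fold apart. Of 22 Myc target genes 21 were measured and none was called in either direction, with a median of -0.06 against 0.21 over all measured genes. Npm1, a nucleolar protein of ribosome assembly, stood at 1298 and 803 CPM (-0.69), and Odc1, the first enzyme of polyamine synthesis, at 132 and 96.3 CPM (-0.45).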

How the data were processed

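The authors deposited unnormalized UMI counts for each gene and barcode of 1 expansion and 1 induction library. Cell Ranger 2.1.1 and mm10 are named in the submitters' processing notes. Neither the release of the annotation nor the use of strand is given in the sources used here, and genes on the other strand overlap each member except Ccne1 and Myc, so reads of such pairs may be mixed. Cells under 500 genes or over 25% mitochondrial UMIs were left out (17 and 30); library totals before this were 29545561 and 9305593 UMIs. Counts summed over cells were divided by the total to give CPM. Levels carry exact Poisson intervals, ratios exact conditional binomial and shares Clopper-Pearson intervals, at 95%. Cells of 1 library are not replicates, and no test between media was made.

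The 9 genes and the lists were chosen with earlier results of these data known. Named beyond the 9 were, of each list, the most abundant gene and the 2 largest ratios among genes of at least 10 CPM, the 3 genes most like each member of at least 20 CPM, and leading genes of clusters; 1 gene that met these rules is not reported here. Mcm3, Hells, Uhrf1, Dtl, Tipin, the Cdkn2 genes, Xist and the markers were named after their values were seen. Thinning drew UMIs of each cell without replacement. Xist or Y-linked cells held at least 2 UMIs of one kind and at least 4 times the other. Clustering used Leiden at resolution 0.6 (scanpy 1.11.5, igraph 0.11.9) with 2000 variable genes, 20 components and 15 neighbours. Scrublet marked 4 and 2 cells as doublets, too few for the caller to be relied on, and they were kept. Coordinates are from GENCODE M21 (GRCm38, the assembly of mm10), where 28339 of the IDs matched. The ratio code was tested on simulated counts. Alternatives are given in the closing section. Versions were scipy 1.17.1, numpy 2.4.6, pandas 2.3.3 and Python 3.11.15.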

Additional observations from a re-analysis of the deposited data

Results flagged for a closer look

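Ccnd2 went in opposite directions between the media in cells of the 2 sexes. Its log2 ratio of induction over expansion was -0.60 where Xist was found and 0.25 where Y-linked transcripts were found, with intervals that do not overlap. The difference was not tested, since each medium has 1 library, and sex and animal cannot be told apart in it. Cells in neither set, 341 in expansion and 578 in induction, are left out of it. Of the Xist cells, 215 of 399 in induction and 128 of 364 in expansion were in the cluster with the lowest Ccnd2 of their library, which held no Y-linked cell, and 31 and 55 were in the S100a6-led cluster with the highest.

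Ccnd1 in the G2/M class over cells of neither class stood on opposite sides of 0 in the media, at -0.20 (-0.26 to -0.14) on the log2 scale in expansion and 0.64 (0.53 to 0.75) in induction. This difference was not tested either.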

How the results depend on the processing

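No paired analysis was possible because each medium has 1 library and the labels give no replicate numbers. Of the 7 measured members, the count called higher was 0, and it was 1 (Myc) in Xist cells, 1 without the S100a6-led clusters (an alternative chosen after seeing the data) and 1 when the interval alone decided. The count called lower was 1. It was 2 without mitochondrial and ribosomal protein genes, 2 with scaling to the median gene, 2 with no CPM minimum, and 4 when the interval alone decided. Over 12 alternatives Ccne1 ranged from -2.33 to -1.25, Cdk4 from -1.03 to -0.58, Ccne2 from -3.20 to -0.56 and Myc from 0.42 to 1.08 on the log2 scale, with no change of sign. Ccnd1, whose interval held 0, took the opposite sign in 7 of 12 alternatives (-0.21 to 0.18) and Ccnd3 in 6 (-0.31 to 0.29). Directions also turned for Ccnd2 (0.23 in cells of 5000 to 15000 UMIs, 0.25 in Y-linked cells), Cdk2 (0.24 in Y-linked cells) and Cdk6 (0.088 in cells of 5000 to 15000 UMIs). The window of 5000 to 15000 UMIs lies below the median depth of expansion cells and holds that of induction cells. The G1/S over neither ratio of Ccnd2 in expansion turned to 0.21 with classes from 5000 UMIs and 0.22 with at least 1 gene of a list. The share of Ccnd1 in D-type cyclin UMIs was, in expansion, 75.4% with equal weight for cells, 73.6% in cells with fewer than 2 G2/M genes, 76.7% in Xist cells, 73.4% in Y-linked cells and 77.6% without the S100a6-led clusters; in induction it was 78.4%, 74.8%, 81.1%, 70.7% and 83.8%. The cause was not tested. Counts of 48, 14 and 51 UMIs in induction limit the precision of Ccne1, Ccne2 and Cdk2.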
